A study of Homo sapiens with 6 samples.

Results

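The 10 genes described here encode the protein coats of plasma lipoproteins and the enzyme that loads lipid onto them: APOB, MTTP, APOA1, APOA2, APOM, APOC1, APOC3, APOE, APOA5 and APOH. They were taken by name, and each symbol matched 1 Ensembl identifier among the 23406 features of the deposited tables. All 10 were among the 14071 features that passed the filter on low counts. The series asked how knockdown of NXN, which encodes the thioredoxin-like protein nucleoredoxin, changes the transcriptome of Hep-3B cells, an established hepatocellular carcinoma line. RNA was taken on days 7, 9 and 11, with 1 library per group and day, which gave 3 shControl and 3 shNXN libraries. Cells of the shControl group had a wild-type NXN genotype label and received a control shRNA plasmid, whereas shNXN cells received an shRNA against NXN. Both groups were transduced with lentivirus and selected in puromycin, so the shControl cells also carried a vector and had been through selection. Which of the NXN shRNAs was sequenced is not given in the labels, and the labels can be read as counting the days either from delivery of the shRNA or from the end of selection. Replicate 1, 2 and 3 are therefore days 7, 9 and 11 of what may be a single transduced population per group, and p-values measure only the spread between these libraries.

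Hepatocytes export triglyceride and cholesteryl ester in very low density lipoprotein. APOB is the large, non-exchangeable scaffold of this particle, and the microsomal triglyceride transfer protein encoded by MTTP adds lipid to it while it is being translated. APOA1 and APOA2 are the main proteins of high density lipoprotein, APOM carries sphingosine 1-phosphate on it, and the small exchangeable proteins APOC1, APOC3, APOE and APOA5 move between particles and set how fast lipase and receptors act on them. APOH, also called beta-2-glycoprotein I, is a plasma protein that binds phospholipid and is best known as the target of antiphospholipid antibodies.

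The libraries held between 15349382 and 16332589 estimated counts, and levels of a gene across libraries are given below as CPM, counts scaled to the size of the library with TMM factors. NXN itself measured 181, 138 and 143 CPM in shControl on days 7, 9 and 11 and 42.6, 47.5 and 39.5 CPM in shNXN, a log2 fold change of -1.83 (SE 0.16, edgeR quasi-likelihood test, Benjamini-Hochberg adjusted p = 0.0378). All 11 hepatocyte markers checked averaged at least 1 CPM in shControl, while the 5 endothelial markers in the tables summed to at most 0.0615 CPM in any library. Over all features, 477 passed the test, 26 higher and 451 lower in shNXN. Across 12740 features with an annotated transcript, the log2 fold change followed the GC content of the transcript with a Spearman coefficient of 0.79, and within the 3 days the coefficient was 0.75, 0.68 and 0.73. Whether this trend arose in the cells or in the libraries was not tested, so the difference of each of the 10 genes is also given after a correction for GC content. With that correction alone, the split over all features was 1 higher and 4 lower. It was 883 higher and 2389 lower with a replicate block alone, and 84 higher and 56 lower with both together.

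Transcript levels were first ordered by FPKM, which is scaled to transcript length and so allows genes to be compared. APOA2 led in both groups, with 9094 ± 693 FPKM in shControl and 11700 ± 2249 FPKM in shNXN (SD, n = 3), and it was the highest of all features by FPKM in 5 of the 6 libraries and second in the shControl library of day 9. APOE followed with 1523 ± 312 FPKM in shControl and 1924 ± 223 FPKM in shNXN, and its range did not overlap that of APOA2 or of the next gene in either group. APOA1, APOC1, APOB and APOH came next in shControl, at 436 ± 124, 345 ± 64.5, 241 ± 109 and 176 ± 58.3 FPKM, and the range of each overlapped that of its neighbour. APOC3 at 26.1 ± 6.28 FPKM, APOM at 19.8 ± 7.53 FPKM and MTTP at 13.0 ± 14.1 FPKM also had overlapping ranges. APOA5 was last at 0.883 ± 0.379 FPKM, from only 4 to 13 counts per shControl library and 7 to 24 per shNXN library.

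**Figure D1:**
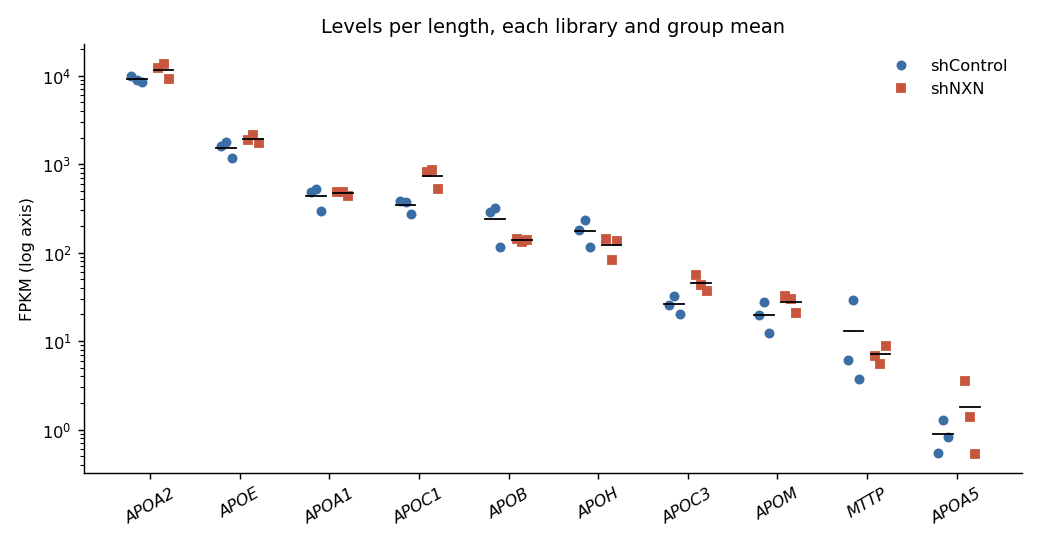
FPKM of each gene on a log axis, with a point per library (circles shControl, squares shNXN, days in order from left to right within a group) and a black line at the group mean (n = 3). APOA2 sits between 8435 and 13730 FPKM in all 6 libraries, and APOC1 and APOA1 change places between the groups.

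In shNXN, APOC1 ranked 3 at 735 ± 188 FPKM, ahead of APOA1 at 472 ± 27.8 FPKM, and the ranges of these neighbours did not overlap. The rest of the order was the same as in shControl. When CPM per kilobase of annotated transcript replaced the deposited FPKM, APOC1 ranked 6 in shControl and 4 in shNXN, behind APOA1 at 3 in both groups. In shControl and shNXN, APOB then ranked 4 and 5, APOH 5 and 6, APOM 7 and 8 and APOC3 8 and 7. These places therefore differed with the length used.

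Against shControl, none of the 10 genes passed the edgeR test at an adjusted p under 0.05, where 3.39% of all features did, and the adjusted p of the 10 ran from 0.121 to 0.800. At an unadjusted p under 0.05 there were 4 genes (APOH, APOC1, APOB and MTTP), where 32.9% of all features passed. Among the 10 log2 fold changes, 7 were above 0 and 3 below, with a median of 0.25, beside a median of 0.03 over all features tested. The median was -0.12 after GC correction, and it was 0.15 without the shControl library of day 11, 0.16 without the shNXN library of day 9 and 0.40 without the shControl library of day 9. The 3 genes below 0 were APOB, MTTP and APOH, and their longest transcripts had 43.5%, 42.1% and 42.9% GC, whereas the other 7 ranged from 50.6% to 68.5%. Over the 10 genes the Spearman coefficient between GC content and log2 fold change was 0.58, a description of 10 genes that share libraries.

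**Figure D2:**
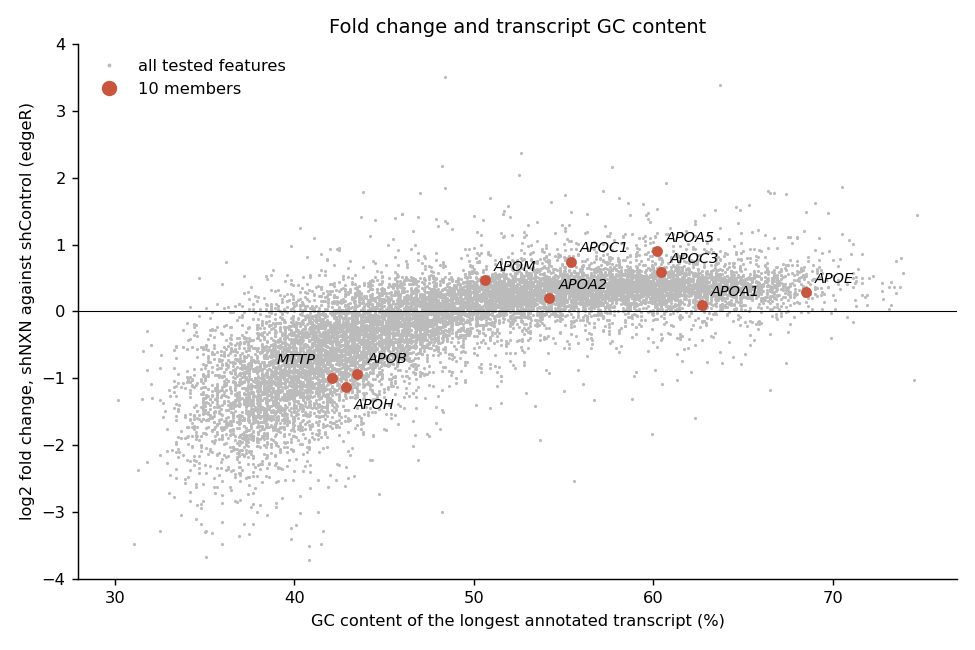
Log2 fold change of shNXN against shControl (edgeR) on the GC content of the longest annotated transcript, for 12740 tested features in grey and the 10 genes in red; 9 features lie beyond the axis limit of 4. APOB, MTTP and APOH lie with the low-GC features below 0, and the 7 other genes lie between 0.09 and 0.91, of which APOA1, APOA2 and APOE turn below 0 after GC correction.

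APOB and MTTP, the scaffold and the lipid loader of very low density lipoprotein, showed the same pattern over the libraries. APOB (ENSG00000084674, GRCh38 chr2:21001429-21044073, minus strand) measured 4006, 4426 and 1603 CPM in shControl on days 7, 9 and 11 and 1759, 1496 and 1975 CPM in shNXN. The shControl libraries of days 7 and 9 were the high ones, and the shControl library of day 11 lay inside the shNXN range. The groups averaged 3345 ± 1523 and 1743 ± 240 CPM (SD, n = 3), and the log2 fold change was -0.94 (SE 0.36, edgeR adjusted p = 0.125). Without the shControl library of day 11 it was -1.22 (edgeR adjusted p = 0.0633), without that of day 9 it was -0.65 (edgeR adjusted p = 0.241), and after GC correction -0.47. By counts, APOB was the sixth most abundant feature in the shControl libraries of days 7 and 9 and ranked between 22 and 33 in the other 4.

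MTTP (ENSG00000138823, chr4:99563761-99623999, plus strand) was far scarcer, with 23.0, 39.8 and 13.1 CPM in shControl and 11.1, 10.2 and 16.6 CPM in shNXN. As for APOB, shControl was higher on days 7 and 9 and lower on day 11, so that the groups overlapped. The log2 fold change was -0.998 (SE 0.42, edgeR adjusted p = 0.146) and -0.36 after GC correction, and leaving out the shControl library of day 9 gave -0.48. The deposited FPKM of MTTP did not follow its counts: in shControl it was 6.04, 29.3 and 3.75 on days 7, 9 and 11, from 350, 646 and 213 counts. TRMT10A overlaps exons of MTTP on the opposite strand and had 20 to 135 counts per library. Whether counting used strand is not given in the sources used here, so the counts of such a pair are uncertain.

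APOH (ENSG00000091583, chr17:66212033-66256525, minus strand) had 162, 202 and 98.5 CPM in shControl and 63.9, 37.1 and 110 CPM in shNXN. Its 2 highest libraries were shControl days 7 and 9 and its 2 lowest were shNXN days 7 and 9, with both day 11 libraries between them. The log2 fold change was -1.13 (SE 0.42, edgeR adjusted p = 0.121). DESeq2 called APOH and no other gene of the 10, with a log2 fold change of -1.12 and an adjusted p of 0.0390, where it called 23.5% of all features. Without the shNXN library of day 11, edgeR also called it, at -1.61 (adjusted p = 0.0187), in a fit that called 3706 features in all. The difference was -0.66 after GC correction and -0.53 on the log2(FPKM + 1) scale. ALB, another abundant secreted protein of the hepatocyte with 41.3% GC, showed the same order of libraries, with 9566, 13650 and 6955 CPM in shControl and 1420, 683 and 7250 CPM in shNXN. It was picked after its values were seen from 11 hepatocyte markers, of which 5 had a log2 fold change above 0 and 6 below. SERPINA1, for one, ranged from 1226 to 1387 CPM in shControl and from 1541 to 2073 CPM in shNXN, and DESeq2 called it higher (adjusted p = 0.0350).

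The sequence before the start of transcription is shown for the 3 genes that represent the patterns found, as 250 bases before and 50 bases after the start in RefSeq (GRCh38.p14). APOH and MTTP stand for the low day 7 and day 9 values in shNXN, and APOC1 for the genes that were higher in shNXN. Capitals mark GTTAAT on either strand, the only searched motif found in these 3.
APOH, chr17:66229366-66229665, minus strand: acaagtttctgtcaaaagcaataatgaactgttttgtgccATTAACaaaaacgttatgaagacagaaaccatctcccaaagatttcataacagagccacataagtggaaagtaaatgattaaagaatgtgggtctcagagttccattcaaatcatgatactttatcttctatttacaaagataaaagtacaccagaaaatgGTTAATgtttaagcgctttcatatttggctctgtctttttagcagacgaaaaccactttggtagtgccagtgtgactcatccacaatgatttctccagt
MTTP, chr4:99563880-99564179, plus strand: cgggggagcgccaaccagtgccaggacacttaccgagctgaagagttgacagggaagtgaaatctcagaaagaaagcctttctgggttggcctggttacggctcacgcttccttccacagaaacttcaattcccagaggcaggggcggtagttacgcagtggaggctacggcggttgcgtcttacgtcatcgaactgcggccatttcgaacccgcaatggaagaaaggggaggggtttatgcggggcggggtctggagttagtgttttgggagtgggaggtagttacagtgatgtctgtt
APOC1, chr19:44914422-44914721, plus strand: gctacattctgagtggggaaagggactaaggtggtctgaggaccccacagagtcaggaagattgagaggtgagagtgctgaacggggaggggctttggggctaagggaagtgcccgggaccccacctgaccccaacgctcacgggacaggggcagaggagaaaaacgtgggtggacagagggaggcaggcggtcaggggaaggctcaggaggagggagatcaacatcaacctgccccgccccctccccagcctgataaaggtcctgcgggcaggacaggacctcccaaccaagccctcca
These windows contain 35.0%, 55.3% and 62.3% GC, which places the promoter of MTTP apart from its AT-rich transcript. GTTAAT occurs in the APOH window from base -210 on the opposite strand, read here as ATTAAC, and from base -49 on the strand printed, and in 6.9% of the 35116 promoters of the table. The other motifs were searched on both strands too: TATAAA (11.5% of all promoters), CCAAT (34.6%), TTGCNNAA for C/EBP (10.5%) and CAAAGTCC for HNF4 (1.2%). In 300 bases none of these was in the windows of APOH, MTTP, APOC1, APOA2 or APOM, while CCAAT was in the windows of APOE and APOA5. The window of APOA5 also held GTTAAT, and the letters TATAAA from base -1, at the start site itself. The promoter table matched 7 of the 10 genes, all but APOA1, APOB and APOC3.

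Among the proteins of high density lipoprotein, differences were small. APOA1 (ENSG00000118137, chr11:116835751-116837950, minus strand), the activator of cholesterol esterification in plasma, measured 355, 384 and 200 CPM in shControl and 347, 342 and 312 CPM in shNXN. The shControl library of day 11 was low and the other 5 lay between 312 and 384. Its log2 fold change was 0.09 (SE 0.24, edgeR adjusted p = 0.800) and -0.27 after GC correction. It was also -0.09 without the shControl library of day 11, so no direction can be given.

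APOA2 (ENSG00000158874, chr1:161222292-161223631, minus strand) measured 2079, 2035 and 1479 CPM in shControl and 2179, 2478 and 1790 CPM in shNXN. It was higher in shNXN on each day, but the day 11 library of shNXN lay below 2 shControl libraries. The log2 fold change was 0.21 (SE 0.19, edgeR adjusted p = 0.451) and -0.10 after GC correction. APOM (ENSG00000204444, chr6:31652416-31658210, plus strand) ranged from 9.94 to 20.5 CPM in shControl and from 15.2 to 25.2 CPM in shNXN, with a log2 fold change of 0.47 (SE 0.32, edgeR adjusted p = 0.327) and 0.30 after GC correction. Its exons overlap those of BAG6 on the opposite strand, which had 12355 to 16883 counts per library against 162 to 414 for APOM, so the counts of this pair are uncertain as well.

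The clearest separation was that of APOC1 (ENSG00000130208, chr19:44914247-44919349, plus strand), which inhibits lipoprotein uptake by receptors and the cholesteryl ester transfer protein. It measured 78.2, 81.8 and 44.7 CPM in shControl and 124, 136 and 83.3 CPM in shNXN. It was the 1 gene of the 10 with all shNXN libraries above all shControl libraries, where 40.6% of all features were separated one way or the other. The gap was narrow, between 81.8 CPM in shControl on day 9 and 83.3 CPM in shNXN on day 11. The groups averaged 68.2 ± 20.5 and 114 ± 27.6 CPM (SD, n = 3), and the exact permutation test on these means gave p = 0.1 (two-sided), the smallest that 3 against 3 libraries allow. The log2 fold change was 0.75 (SE 0.28, edgeR adjusted p = 0.125) and 0.42 after GC correction. Under the replicate block, which compares the libraries of the same day, APOC1 rose by 0.77 on the log2 scale (SE 0.11, edgeR adjusted p = 0.0179), the only one of the 10 to pass where 23.3% of all features did. With GC correction and the block it was 0.44 (edgeR adjusted p = 0.116) and no longer passed. Without the shNXN library of day 11 and with no block, edgeR called APOC1 at 0.93 (adjusted p = 0.0402). That fit called 3706 of the 14383 features tested and 2 of the 10 genes, the other being APOH.

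APOE (ENSG00000130203, chr19:44905754-44909393, plus strand), the ligand of the low density lipoprotein receptor and the neighbour of APOC1, measured 1478, 1693 and 1030 CPM in shControl and 1650, 1894 and 1606 CPM in shNXN. It was higher in shNXN on each day, and the shControl value of day 9 lay inside the shNXN range. The log2 fold change was 0.29 (SE 0.20, edgeR adjusted p = 0.314) and -0.15 after GC correction. Counts of APOC1 per count of APOE were 0.0529, 0.0483 and 0.0434 in shControl and 0.0752, 0.0718 and 0.0519 in shNXN, so the shNXN library of day 11 fell among the shControl values. By FPKM the ratio was 0.244, 0.210 and 0.229 in shControl and 0.437, 0.397 and 0.302 in shNXN, with no overlap. For APOC1, however, CPM divided by FPKM was 0.202, 0.217 and 0.165 in shControl on days 7, 9 and 11. It was 0.15, 0.158 and 0.161 in shNXN, below every shControl value. The lower values raise the FPKM of APOC1 in shNXN relative to its counts, so the FPKM ratio is not separate evidence. In the same cluster on chromosome 19, APOC2, the cofactor of lipoprotein lipase, had a log2 fold change of 0.53 (SE 0.27, edgeR adjusted p = 0.204). APOC2 rose under the replicate block (0.52, edgeR adjusted p = 0.0345), where 23.3% of all features passed, but not with GC correction as well (0.15, edgeR adjusted p = 0.463).

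APOC3 (ENSG00000110245, chr11:116829706-116833072, plus strand), an inhibitor of triglyceride clearance, measured 7.41, 9.84 and 5.09 CPM in shControl and 13.5, 10.8 and 9.35 CPM in shNXN. It was higher in shNXN on each day, and 1 shControl library lay above the lowest shNXN library. The log2 fold change was 0.59 (SE 0.30, edgeR adjusted p = 0.209) and 0.23 after GC correction. APOA5 (ENSG00000110243, chr11:116789367-116792420, minus strand), which promotes triglyceride clearance and lies in the same cluster, ranged from 0.245 to 0.800 CPM in shControl and from 0.451 to 1.46 CPM in shNXN. Its log2 fold change of 0.91 had an SE of 0.59 (edgeR adjusted p = 0.300) and was 0.54 after GC correction. APOA4, the cluster's other apolipoprotein, had 8 to 29 counts per library and a log2 fold change of 0.02 (SE 0.58).

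**Figure D3:**
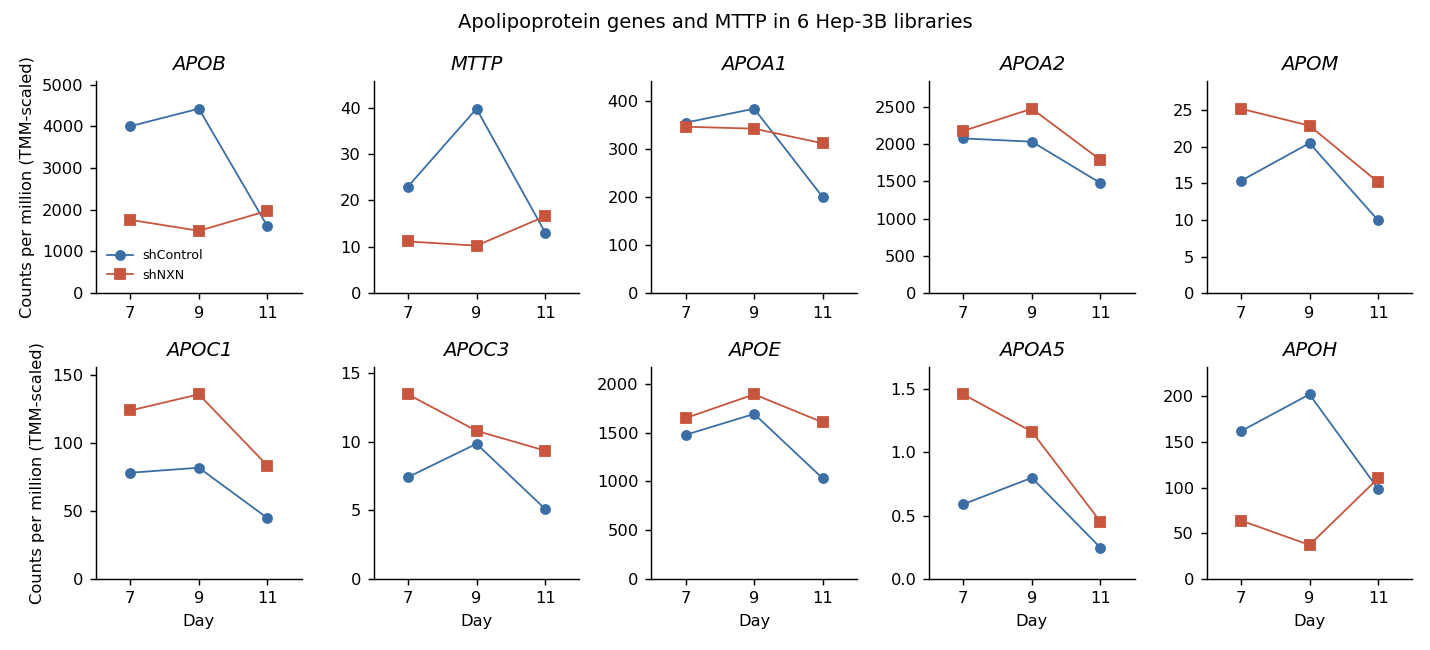
TMM-scaled CPM of each gene by day, with 1 library per point, shControl as circles and shNXN as squares, and each axis starting at 0. APOB, MTTP and APOH are higher in shControl on days 7 and 9 and cross on day 11, APOA1 is at similar levels until the low shControl value of day 11, and the shNXN line of APOC1, APOC3, APOE, APOM, APOA2 and APOA5 lies above that of shControl throughout.

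Read day by day, 6 of the 10 genes had the same direction on all 3 days (APOA2, APOM, APOC1, APOC3, APOE and APOA5, all higher in shNXN), where 68.4% of all features kept 1 direction. The log2 difference of APOC1 was 0.66, 0.73 and 0.89 on days 7, 9 and 11. That of APOB was -1.19, -1.57 and 0.30, that of MTTP -1.01, -1.91 and 0.33, and that of APOH -1.33, -2.43 and 0.16. For days 7, 9 and 11 the median over the 10 genes was 0.11, 0.14 and 0.47, beside 0.00, 0.00 and 0.07 over all features. On day 11 all 10 genes were higher in shNXN, but the share of all features higher on that day was not counted. The differences within a day are not corrected for GC content, and those of day 11 all rest on 1 shControl library. Each day holds 1 library per group, so a day cannot be told apart from its libraries.

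**Figure D4:**
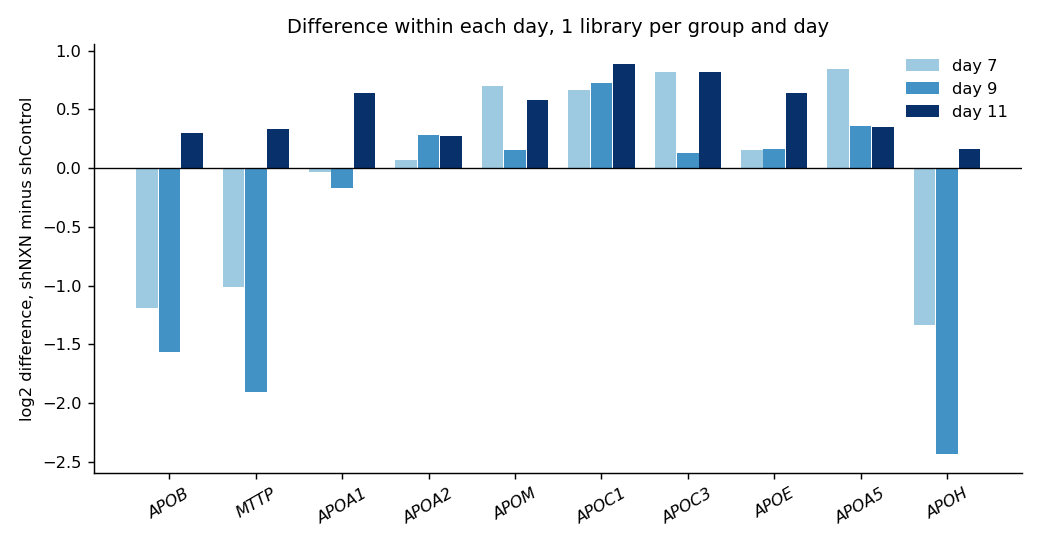
Log2 difference in CPM between the shNXN and the shControl library of the same day, for days 7 (light), 9 and 11 (dark), on an axis with 0 marked. The bars of APOB, MTTP and APOH point down on days 7 and 9, to -2.43 for APOH, and all 10 bars of day 11 point up.

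In shControl, all 10 genes had their lowest CPM on day 11, and APOB was at 1603 CPM against 4426 CPM on day 9. The share of all features that were lowest in this library was not counted, so the low values are not shown to be particular to the 10 genes. The same library enters every day 11 difference given above. In shNXN, APOA1, APOA2, APOM, APOC1, APOC3 and APOA5 were also lowest on day 11, APOE was lowest on that day by a small margin, and APOB, MTTP and APOH were highest. A slope over days fitted in both groups together was called for none of the 10, with 0.0% of all features called, and at an unadjusted p under 0.05 for 1, APOC1, where 10.7% of all features passed. The slope of APOC1 was -0.17 per day on the log2 scale (SE 0.07, edgeR adjusted p = 0.453). DESeq2 called the slope of 82 features and of none of the 10. The difference in slope between groups was likewise called for none of the 10 and for 0.0% of all features by edgeR, which had 152 features and none of the 10 at an unadjusted p under 0.05, and for 4 features by DESeq2. The largest such difference relative to its spread was that of APOB, 0.37 per day (edgeR unadjusted p = 0.0739, adjusted p = 1.0).

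The 10 genes together took 0.815%, 0.887% and 0.447% of all counts in shControl on days 7, 9 and 11 and 0.634%, 0.653% and 0.571% in shNXN. APOB supplied 48.8%, 49.8% and 35.8% of these counts in shControl and 28.5%, 23.3% and 33.4% in shNXN. Every shNXN share lay below every shControl share, with the day 11 libraries closest, where 40.6% of all features were separated by CPM. The share of APOB also depends on the other genes of the set, and the CPM of APOB itself overlapped between the groups. APOA2 supplied 22.9% to 33.0% in shControl and 30.3% to 38.6% in shNXN. Per length, APOA2 made up 73.0% to 80.7% of the summed FPKM of the 10 genes in every library, and APOB 2.25%, 2.57% and 1.11% in shControl and 0.907%, 0.749% and 1.12% in shNXN, so that by FPKM the day 11 libraries of APOB overlapped. The FPKM share of APOA2 depends on the short length that the FPKM imply for it. In these bulk RNA libraries, a lower level in every cell and a loss of the cells with the highest level cannot be told apart.

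The genes whose log2 CPM over the 6 libraries was most like that of APOB were PPM1H, COL14A1, CCDC28A, ATRN and NPNT, with Pearson coefficients of 0.988 to 0.994 among 9533 features with a symbol and a mean of at least 10 CPM. MTTP ranked 42 in this order with 0.94 and APOH 176 with 0.86, whereas APOA1 was at 0.53 and APOC1 at -0.15. APOA1 was most like TMEM63B, PLA2G12B, NRTN, PHLPP1 and ADAT3, with coefficients of 0.983 to 0.994, and among the 10 genes it was closest to APOE (0.89) and farthest from APOH (0.11). These coefficients describe 6 libraries that share groups and days.

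For 12 genes of assembly and secretion of lipoproteins, all tested, the median log2 fold change was 0.04. Only 1 was called by edgeR, lower in shNXN, where 3.39% of all features passed. This was SOAT1, which makes the cholesteryl ester stored in cells. SOAT1 measured 120.5, 150 and 119 CPM in shControl and 39.0, 35.2 and 56.4 CPM in shNXN, with no overlap. It fell by 1.58 on the log2 scale (SE 0.22, edgeR adjusted p = 0.0412), and after GC correction the difference was -0.66 (edgeR adjusted p = 0.135). With any of 4 libraries left out (shControl of days 7 and 11, shNXN of days 7 and 9), edgeR called 0 features in all, NXN and SOAT1 included, with 2668 to 4229 at an unadjusted p under 0.05. SAR1B, the small GTPase of the carrier for large secretory cargo, and MIA2, which helps export such cargo from the endoplasmic reticulum, had log2 fold changes of -0.89 (SE 0.22, edgeR adjusted p = 0.0634) and -0.91 (SE 0.24, edgeR adjusted p = 0.0692). Both fell under DESeq2 (adjusted p = 0.00241 and 0.00752) and under the replicate block (edgeR adjusted p = 0.0277 and 0.0232). DESeq2 called 3 of the 12 genes, where it called 23.5% of all features, and the block called 4, where 23.3% of all features passed. With GC correction added to the block, SAR1B and MIA2 turned above 0 and lost the call, at 0.16 (edgeR adjusted p = 0.534) and 0.25 (edgeR adjusted p = 0.510). P4HB, the partner subunit of the MTTP protein, rose under the block by 0.38 (edgeR adjusted p = 0.0421) and was at 0.37 (edgeR adjusted p = 0.159) without it, and at 0.03 (edgeR adjusted p = 0.901) with the block and GC correction.

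Other apolipoproteins and the receptors gave no edgeR call without the block, with 1 and 3 genes at an unadjusted p under 0.05, where 32.9% of all features passed. Of 9 other plasma apolipoproteins, 5 passed the filter and all 5 had a log2 fold change above 0, with a median of 0.43. After GC correction 3 were above 0 and 2 below, with a median of 0.04. The smallest p was that of SAA4, the constitutive serum amyloid A of high density lipoprotein, at 1.84 (SE 0.52, edgeR adjusted p = 0.0761) from 4 to 44 counts per library. CLU, an abundant lipid-binding chaperone, was at 991 ± 319 CPM in shControl and 995 ± 141 CPM in shNXN (SD, n = 3). Of 12 receptors and regulators of uptake, 10 were above 0 and 2 below, with a median of 0.30. After GC correction 7 were above 0 and 5 below, with a median of 0.05. The proteoglycan SDC1 was at 0.56 (SE 0.17, edgeR adjusted p = 0.0814) and the high density lipoprotein receptor SCARB1 at 0.30 (SE 0.11, edgeR adjusted p = 0.129). DESeq2 called SAA4 and 3 of the receptors and regulators, SDC1 and SCARB1 among them, all higher, where it called 23.5% of all features. Under the block 4 of the 12 rose, including SDC1 and LRP1, and none fell, where 23.3% of all features passed. With GC correction as well none of the 12 passed, SDC1 being at 0.21 (edgeR adjusted p = 0.308) and LRP1 at 0.08 (edgeR adjusted p = 0.747).

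In plasma remodelling, 11 of 12 genes were in the tables, 7 passed the filter and edgeR called none. An unadjusted p under 0.05 was reached by 2, and by 32.9% of all features. DESeq2 called 1 as lower, where it called 23.5% of all features. PON3, an antioxidant esterase of high density lipoprotein, was at -1.23 (SE 0.49, edgeR adjusted p = 0.135) and ANGPTL8 at 0.24 (SE 0.17, edgeR adjusted p = 0.352). Of 4 cholesterol exporters only ABCA1 passed the filter, at -0.46 (SE 0.29, edgeR adjusted p = 0.290), and neither tool called it.

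The 21 transcription factors known to act on apolipoprotein genes were all tested, and edgeR called none. An unadjusted p under 0.05 was reached by 5, and by 32.9% of all features. DESeq2 called 2, CEBPB and NR1H2, as higher, where it called 23.5% of all features. There were 18 log2 fold changes above 0, 3 below and a median of 0.38, beside 7229 above and 6842 below over all features. The liver X receptor NR1H2 was at 0.40 (SE 0.13, edgeR adjusted p = 0.102), NR5A2 at -0.45 (SE 0.15, edgeR adjusted p = 0.103) and CEBPB at 1.14 (SE 0.45, edgeR adjusted p = 0.134). Under the block 6 of the 21 rose, including HNF4A, CEBPA, FOXA3, MLXIPL and SREBF2, and none fell, where 23.3% of all features passed. With GC correction as well, 0 of the 21 passed, and the median with GC correction alone was 0.09. The median GC content of the 21 transcripts was 59.0%, above the 48.4% of all features tested.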

How the data were processed

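RNA of shControl and shNXN Hep-3B cells was sequenced, with 1 library per group on days 7, 9 and 11. In the first, each gene and library has an estimated count that the authors deposited with up to 2 decimals. FPKM values, which the authors scaled to transcript length and library size, are in the second. The aligner and counting program are not given in the sources used here. The submitters' processing notes name the mouse builds GRCm38 and mm10, whereas the samples are labelled human and 20314 of the 23406 features carry human Ensembl identifiers, so coordinates were taken from GENCODE release 29 (GRCh38). There were 0 columns without a sample. Depth ran from 15349382 to 16332589 counts per library.

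Counts were rounded, filtered with filterByExpr and tested with edgeR 4.0.16 in R 4.3.3 (TMM scaling, quasi-likelihood test, adjusted p under 0.05 by Benjamini-Hochberg over 14071 features), for the group, for the slope over days with the group in the model (3 residual degrees of freedom) and for the difference in slope (2). The SE is the log2 fold change divided by the square root of F. Differences within a day are of log2(CPM + 0.5). Alternatives were DESeq2 1.42.0, RLE factors, library size, no filter, limma 3.58.1 on log2(FPKM + 1) or log2(FPKM + 0.1), each library left out, a replicate block, and a spline of transcript GC content with 5 degrees of freedom as an offset (GC known for 90.5% of tested features and all 10 members). On a log2(FPKM + 1) scale the change of low genes is understated. The test was also run on simulated counts with known changes, independent libraries, a fixed spread and no GC trend. That setting is unlike these libraries, so it does not measure error or power here. No 2 libraries of a group agreed within sampling noise, with a chi-square per feature of at least 21.1.

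The replicate numbers follow the days, which the labels share between groups. Deviations from the group means correlated at 0.39, 0.35 and 0.50 between libraries of the same day and at -0.42 to 0.17 between days. The members, the 10 gene lists beside them and the motifs were chosen with earlier results of these data known. All 10 members were named, then from each list of related genes those called by edgeR and up to 3 with the smallest p, the genes that the block or DESeq2 called being named after their values were seen, and the 5 features with a mean of at least 10 CPM most like APOB or APOA1 on the log2(CPM + 1) scale. CLU, ALB, SERPINA1, APOA4, APOC2 and P4HB were named after their values were seen. Some genes of the lists are counted but not reported by name here. Promoters are from RefSeq (GRCh38.p14).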

Additional observations from a re-analysis of the deposited data

Results flagged for a closer look

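The difference between shNXN and shControl changed sign between days for 4 of the 10 genes, on the log2 scale and with 1 library per group and day. APOB was lower in shNXN on days 7 and 9 (-1.19 and -1.57) and higher on day 11 (0.30). MTTP was at -1.01, -1.91 and 0.33 on days 7, 9 and 11, and APOH at -1.33, -2.43 and 0.16. APOA1 was close to 0 on the first days (-0.035 and -0.17) and at 0.64 on day 11. A change of sign between single days was not tested. The difference in slope between the groups, which was tested, had edgeR adjusted p = 1.0 for each of the 4 genes.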

How the results depend on the processing

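Under the 16 alternatives for the group comparison, 13 left 0 of the 10 genes called, DESeq2 called 1, the replicate block called 1, and leaving out 1 library at a time called 0 to 2, with 2 only without the shNXN library of day 11. The block changed no other call among the 10. The median log2 fold change of the 10 genes moved from 0.25 to -0.12 with GC correction, alone or with the block. The direction turned with GC correction for APOA1 (-0.27, with the block -0.25), APOA2 (-0.10, with the block -0.091) and APOE (-0.15 both ways), and for APOA1 the values without 1 library ran from -0.086 to 0.305. Slopes over days turned for APOE with GC correction (0.045), for APOH with GC correction (-0.033) and limma (-0.09), and for MTTP, whose slope was only 0.005 per day, with DESeq2 (-0.003), library size (-0.009), GC correction (-0.083), RLE factors (-0.005), no filter (-0.003) and limma (-0.028). Without 1 library the slopes ran from -0.28 to 0.03 for APOB, from -0.23 to 0.17 for APOH and from -0.16 to 0.18 for MTTP. Over all features, edgeR called 477, against 929 when scaled by library size, 826 by RLE factors, 818 without the filter, 3311 under DESeq2, 3272 with the replicate block, 5 with GC correction, 140 with both, 287, 66 and 2 with limma (pseudocount 1, pseudocount 0.1, no filter) and 0 to 3706 without 1 library. On the FPKM scale the median of all features was 0.13 and that of the 10 genes 0.35. The cause of these changes was not tested. APOA5 rests on 4 to 24 counts per library.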

Other observations

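The 2 deposited tables did not give APOH and MTTP the same relative levels. Dividing CPM by FPKM gives a length, in kilobases, that links the tables for a gene in a library. It also holds any difference in how the tables were scaled to library size, so it is not a measured transcript length. For APOH it was 0.896, 0.871 and 0.850 in shControl on days 7, 9 and 11, and 0.446, 0.447 and 0.814 in shNXN. The shNXN libraries of days 7 and 9, in which the counts of APOH were lowest, had the short value, so their FPKM of 143 and 82.9 stood closer to the 116 to 232 FPKM of shControl than their CPM did. For MTTP the length was 3.80, 1.36 and 3.48 in shControl and 1.64, 1.85 and 1.86 in shNXN, so shControl on day 9 had the short value and 29.3 FPKM. For APOC1 the length was 0.165 to 0.217 in shControl and 0.15 to 0.161 in shNXN, with no overlap, so its FPKM differed more between groups than its CPM. For APOB it ranged from 11.4 to 14.3, for APOE from 0.870 to 0.942 and for APOA1 from 0.678 to 0.733. How the FPKM values were computed is not given in the sources used here, and the cause of the differences was not tested.

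Of 6 leukocyte markers, LYZ, CD68 and CD14 passed the filter, at 95.2 to 281 CPM for LYZ and 57.4 to 97.1 CPM for CD68, and the list summed to 173 to 225 CPM in shControl and 241 to 377 CPM in shNXN, while the defining markers PTPRC and CD3E averaged at most 0.0615 CPM in either group. All 3 had a log2 fold change above 0 (median 0.62), with no call by edgeR and 1 at an unadjusted p under 0.05, where 32.9% of all features passed. DESeq2 called CD68 higher (adjusted p = 0.0311), where it called 23.5% of all features. LYZ was higher under the replicate block with GC correction (1.36, edgeR adjusted p = 0.0427), in a fit that called 140 of 14071 features. The 6 fibroblast markers summed to 4.92 to 7.24 CPM in shControl and 6.68 to 8.79 CPM in shNXN. The part of such cells in the differences above was not tested.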
